A study of Mus musculus with 6 samples.

Results

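The results concern 10 genes of the brain endothelium and its barrier, chosen by name with earlier results of these data known. They are the claudin gene Cldn5, the adhesion genes Cdh5 and Pecam1, the receptor genes Flt1 and Tek, the transporter genes Slc2a1, Slco1a4 and Abcb1a, the surface antigen gene Ly6c1, and Cd36. Among 55335 Ensembl gene identifiers counted in each library, all 10 were found by their GENCODE symbols, and all 10 passed the filter on low counts that left 19809 genes to test. RNA-seq had been made from striatum of C57 mice in 2 groups of 3 samples, labelled as PDE5A overexpressing and as wild-type (WT) control. PDE5A is a phosphodiesterase that breaks down cyclic GMP. No age or sex of the mice, no agent or promoter behind the overexpression and no treatment of the controls is stated in the labels.

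Endothelial cells of brain capillaries are sealed to each other by tight junctions, of which claudin-5 is the main sealing protein, and they carry few vesicles. Supply therefore runs through transporters: glucose enters through GLUT1, the product of Slc2a1, while P-glycoprotein, the product of Abcb1a in rodents, pumps many drugs back into the blood. Cd36 encodes a scavenger receptor that takes up long-chain fatty acids and binds thrombospondin-1. It is made by microvascular endothelium of several organs and also by macrophages, microglia, platelets and adipocytes, so it is no strict marker of endothelium. Nor are the other 9 genes all strict markers, as astrocytes also make GLUT1.

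The 9 endothelial genes other than Cd36 had overlapping values in both groups, and their fold changes, overexpression over control, lay between 0.883 and 1.12, none past the test. Cd36 was lower in all 3 overexpression libraries than in any control library, at 0.327 times the control level (log2 fold change −1.61, SE 0.29). By the quasi-likelihood test of edgeR, with Benjamini-Hochberg adjustment over 19809 genes, 0 of the 10 genes passed an adjusted p of 0.05, where 0.00505% of all tested genes (1 gene, Pde5a) did. Cd36 had an adjusted p of 0.607 in that test and 0.0291 in the DESeq2 Wald test, so its call depended on the tool. Lower at an unadjusted p under 0.05 there was 1 of the 10, Cd36, where 1.64% of all tested genes stood, and likewise 1 of 10 had overexpression libraries all below the control libraries, where 4.11% of all tested genes had. The DESeq2 Wald test called 0.419% of the genes it tested, in either direction.

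The libraries held 33013698 to 39271447 counts in overexpression and 40653784 to 42288789 in control, and the 10 genes took 0.0259% to 0.0301% of the counts in overexpression libraries and 0.0239% to 0.0299% in control libraries. Pde5a, the overexpressed gene, was 684 ± 85.5 CPM in overexpression and 4.65 ± 1.26 CPM in control (SD, n = 3 each), as the labels say. CPM here are counts scaled to TMM-adjusted library sizes. The tissue carried its defining markers: all 10 markers of medium spiny neurons, the principal striatal neurons, were detected, with summed levels of 3879.9 to 8007 CPM in overexpression and 4595 to 8108 CPM in control. A list of 18 further endothelial markers was likewise detected in full, at summed levels of 164 to 225 CPM in overexpression and 153 to 193 CPM in control. Overexpression replicates 1 and 2 stood apart by choroid plexus markers: the 10 markers summed to 915 and 3417 CPM there, against 316 CPM in overexpression replicate 3 and 321 to 451 CPM in control. Enpp2 made up most of the lower sums, at 282 CPM in overexpression replicate 3 and 267 to 379 CPM in control. Ttr stood at 481, 2243 and 22.5 CPM in overexpression replicates 1 to 3, against 32.6 to 48.5 CPM in control. In such bulk samples, fewer endothelial cells and less RNA per endothelial cell cannot be told apart. Whether each sample is a separate animal is not stated in the labels, so the spread behind each p-value may be technical.

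**Figure D1:**
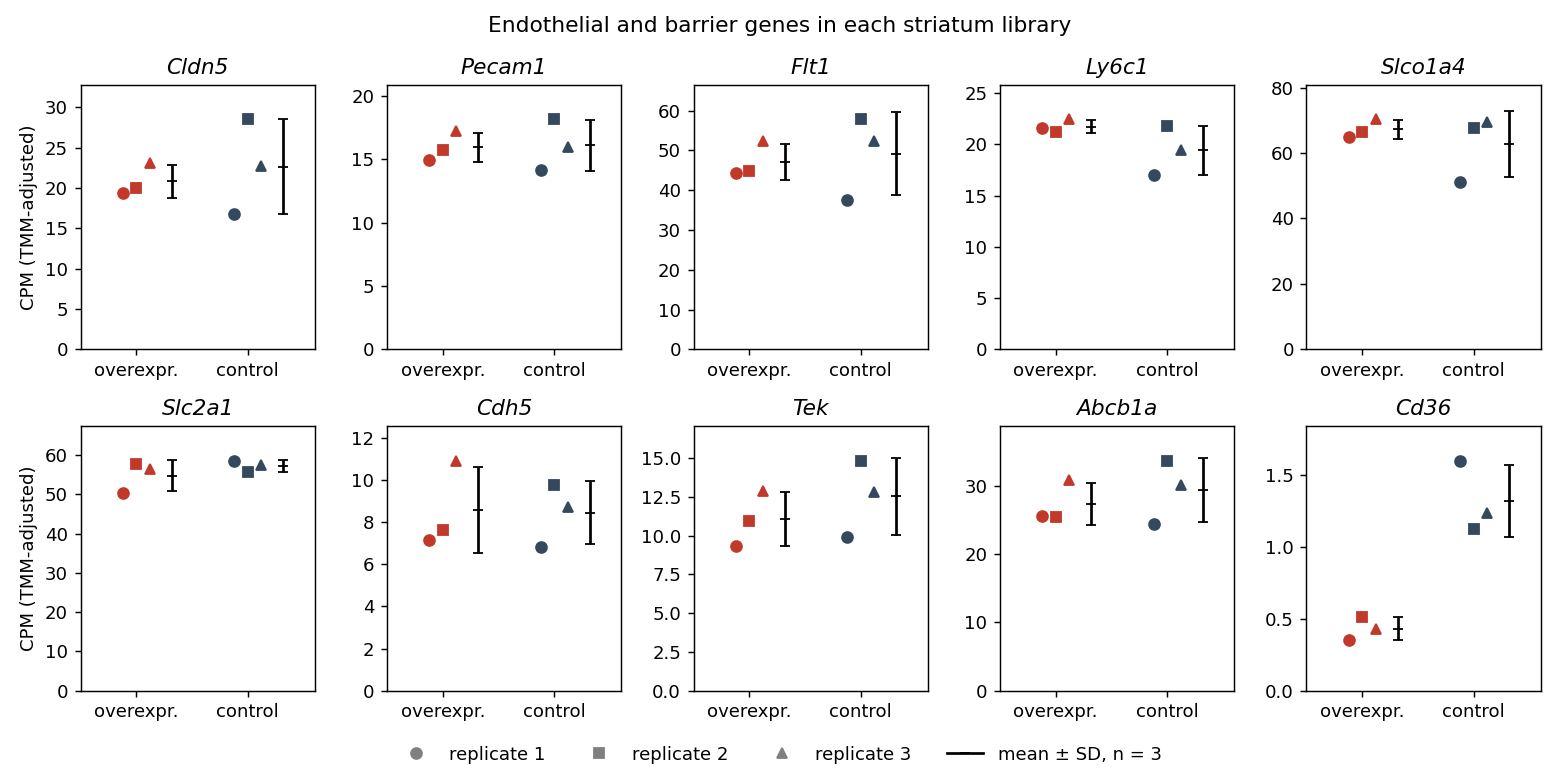
Level of each of the 10 genes in CPM (vertical axes, from 0) in the 3 overexpression and 3 control libraries, with the mean and SD of each group. The groups overlap for 9 genes, and for Cd36 all 3 overexpression libraries, at 0.355 to 0.511 CPM, lie below all 3 control libraries, at 1.12 to 1.598 CPM.

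Cldn5 (ENSMUSG00000041378), which encodes the sealing claudin, is a protein-coding gene of 1416 bases of exon on the plus strand at chr16:18776847-18778262 in mm10. It had 19.3, 20.03 and 23.1 CPM in overexpression replicates 1 to 3, against 16.8, 28.5 and 22.7 CPM in control replicates 1 to 3. The overexpression libraries lay within the range of the control libraries, whose replicate 2 was highest and replicate 1 lowest. The fold change was 0.920, with a 95% interval of 0.679 to 1.25 and an unadjusted p of 0.540 in edgeR's test, so a change of either sign within that interval was not excluded at this size of study.

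Cdh5 (ENSMUSG00000031871, chr8:104101625-104144511, plus strand) encodes VE-cadherin, the cadherin of endothelial adherens junctions. Its level was 7.17, 7.64 and 10.9 CPM in overexpression replicates 1 to 3, against 6.82, 9.78 and 8.74 CPM in control. The highest library was overexpression replicate 3 and the lowest control replicate 1, and the fold change was 1.02 with an interval of 0.734 to 1.41. Pecam1 (ENSMUSG00000020717, chr11:106654217-106750628, minus strand) encodes CD31, an adhesion molecule at the contacts between endothelial cells. Its level was 14.9, 15.8 and 17.2 CPM in overexpression, against 14.1, 18.2 and 16.0 CPM in control, a fold change of 0.991 with an interval of 0.822 to 1.20. All 3 overexpression values of Pecam1 lay inside the control range.

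Flt1 (ENSMUSG00000029648, chr5:147561604-147726011, minus strand) encodes VEGFR1, a VEGF receptor that binds its ligand tightly and signals weakly. It had 44.2, 44.8 and 52.4 CPM in overexpression, against 37.5, 57.8 and 52.3 CPM in control, with all overexpression values inside the control range and a fold change of 0.958 (95% interval 0.736 to 1.25). Tek (ENSMUSG00000006386, chr4:94739289-94874976, plus strand) encodes TIE2, the receptor of the angiopoietins, which steadies resting vessels. It had 9.35, 10.9 and 12.9 CPM in overexpression, against 9.92, 14.8 and 12.8 CPM in control. Overexpression replicate 1 was the lowest library for Tek, just under control replicate 1. Its fold change of 0.883 was the furthest from 1 on the lower side among the 9 genes, with an interval of 0.665 to 1.17 and an unadjusted p of 0.339.

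Slc2a1 (ENSMUSG00000028645, chr4:119108711-119137983, plus strand), the GLUT1 gene, had 50.2, 57.7 and 56.3 CPM in overexpression, against 58.5, 55.7 and 57.4 CPM in control. Apart from overexpression replicate 1, the 5 libraries were close to each other, and the fold change of 0.957 had the narrowest interval of the 10 genes on the log2 scale, from 0.850 to 1.08 as a fold. GLUT1 is also made by astrocytes, and an exon of the gene model Gm12868 overlaps Slc2a1 on the other strand, so reads of the 2 could be mixed where strand was not used in counting. The same holds for Abcb1a and the gene model Gm42686. Slco1a4 (ENSMUSG00000030237, chr6:141805440-141856199, minus strand) encodes OATP1A4, an organic anion transporter of the mouse blood-brain barrier. It had 64.8, 66.5 and 70.3 CPM in overexpression, against 51.1, 67.5 and 69.5 CPM in control, and control replicate 1 stood below the other 5 libraries. Abcb1a (ENSMUSG00000040584, chr5:8660077-8748575, plus strand) had 25.6, 25.5 and 30.9 CPM in overexpression, all inside the control range of 24.4, 33.6 and 30.02 CPM. The fold change of Slco1a4 was 1.07, with an interval of 0.887 to 1.29. That of Abcb1a was 0.931, and its log2 fold change of −0.10 had an interval of −0.42 to 0.21.

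Ly6c1 (ENSMUSG00000079018, chr15:75044018-75048830, minus strand) encodes a GPI-anchored surface antigen that is abundant in mouse brain endothelium. It had 21.6, 21.2 and 22.4 CPM in overexpression, against 17.0, 21.7 and 19.5 CPM in control. The lowest overexpression library was just under the highest control library, so the groups overlapped. Its fold change of 1.12, with an interval of 0.947 to 1.32, was the highest of the 10 genes, and its unadjusted p was 0.157. The neighbouring Ly6c2, an antigen of mouse monocytes and some T cells, is nearly the same gene: over 393 coding bases, 384 were identical (97.7%). The first 120 coding bases of both, from GENCODE M21 transcripts on chromosome 15, are shown because most of the differing bases lie there, 6 of them, set in capitals, and the long runs between them are the same in both genes.
Ly6c1: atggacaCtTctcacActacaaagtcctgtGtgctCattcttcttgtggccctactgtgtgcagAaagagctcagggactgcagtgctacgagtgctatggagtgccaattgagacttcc
Ly6c2: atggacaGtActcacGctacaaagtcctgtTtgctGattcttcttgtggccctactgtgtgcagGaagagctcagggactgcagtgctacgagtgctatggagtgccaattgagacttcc

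Of all distinct 50-base stretches in Ly6c1 transcripts, 32.8% also occurred, on either strand, in a transcript of another gene, and 21.5% occurred in Ly6c2. For Abcb1a the share was 22.5%, of which most was with its paralog Abcb1b (16.3% of all stretches), and for the other 8 genes it was at most 1.61%. Cd36, Cldn5, Cdh5 and Tek shared none. How reads matching several genes were counted is not given in the sources used here, so the counts of Ly6c1 and Abcb1a are uncertain by an unknown part of those shares. Abcb1b itself, the other rodent P-glycoprotein gene, had 5.78, 3.64 and 4.94 CPM in overexpression and 4.65, 4.90 and 5.02 CPM in control, a log2 fold change of −0.02 (SE 0.19).

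Ly6c2 had 1.77, 4.66 and 2.88 CPM in overexpression, against 0.596, 0.658 and 1.63 CPM in control, and its groups did not overlap. Its log2 fold change was 1.68 (SE 0.50) with an unadjusted p of 0.0116, and it did not pass the test over all genes in edgeR (adjusted p = 0.999963). Beside it, 6 of 8 T cell markers were tested, all 6 had positive fold changes, and their mean level was 0.80, 0.98 and 0.79 log2 CPM in overexpression, against −1.21, −0.87 and −0.55 log2 CPM in control. In 5 of the 6, all but Cd4, the overexpression libraries were all above the control libraries, where 4.81% of all tested genes did so. Cd8a did so narrowly, at 0.887 CPM in overexpression replicate 1 against 0.841 CPM in control replicate 3. The smallest p values were those of Cxcr6, a chemokine receptor of resident T cells, and of Cd3g and Cd3e, chains of the T cell receptor complex. Cxcr6 had 0.963, 1.08 and 0.854 CPM in overexpression, against 0.119, 0.122 and 0.272 CPM in control. Its log2 fold change was 2.48, with an unadjusted p of 0.000348 in edgeR, where it did not pass the test over all genes, and an adjusted p of 0.00369 in the DESeq2 Wald test. The log2 fold changes of Cd3g and Cd3e were 2.24 (SE 0.53) and 2.96 (SE 0.75). Their counts in control replicates 1 to 3 were only 6, 7 and 2 for Cd3g and 3, 0 and 8 for Cd3e. Neither passed edgeR's test over all genes, and Cd3e had an adjusted p of 0.0699 in the DESeq2 Wald test. Cd3e, Cd3g, Cxcr6 and Cd8a passed the filter on low counts only through their overexpression libraries. Their place among the positive and non-overlapping markers was therefore favoured by the filter. The summed level of the 8 markers, 46.4 to 84.8 CPM in overexpression and 41.9 to 78.6 CPM in control, was mostly that of Cd4, at 41.3 to 80.2 CPM in overexpression and 40.01 to 77.4 CPM in control. The 7 markers other than Cd4 summed to 4.64 to 6.26 CPM in overexpression, against 0.835 to 1.91 CPM in control, and none of the 8 was at 0 in all libraries. The part of these cells in the Ly6c2 and Ly6c1 counts was not tested. The Slco1a4 paralogs were near 0, with Slco1a5 at 0.152, 0.902 and 0.133 CPM in overexpression and at most 0.146 CPM in control, and Slco1a6 with 2 counts in 1 control library and 0 in the other 5.

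**Figure D2:**
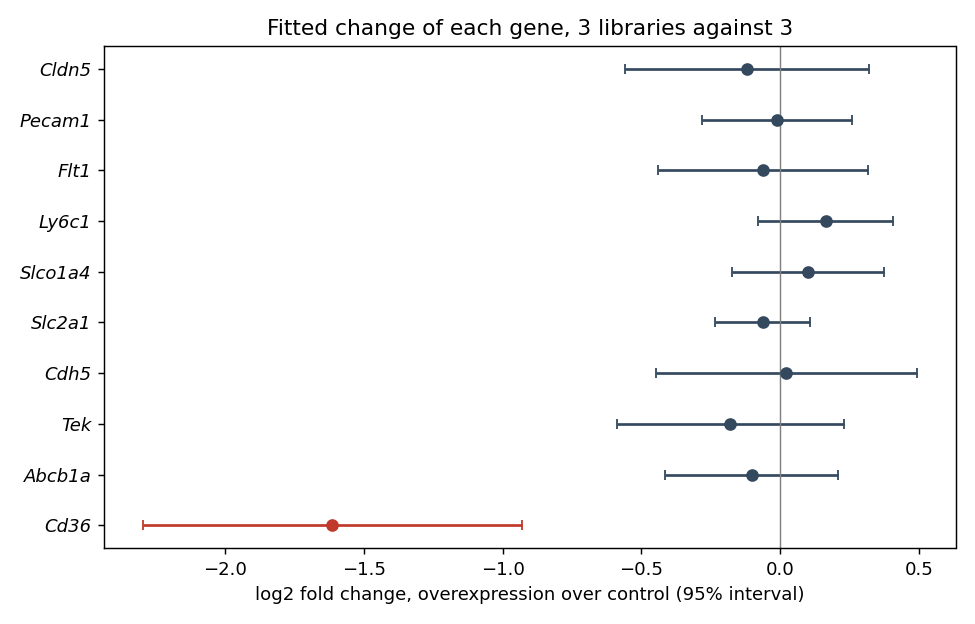
Log2 fold change of each of the 10 genes, overexpression over control, from edgeR's fit (points) with 95% intervals (bars). The intervals of 9 genes span 0, and that of Cd36 runs from −2.30 to −0.93.

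Cd36 (ENSMUSG00000002944) lies on the minus strand at chr5:17781690-17888801 with 3590 bases of exon, and no other gene model overlaps it. Its counts were 14, 17 and 16 in overexpression replicates 1 to 3, against 67, 46 and 50 in control replicates 1 to 3. On the CPM scale these were 0.355, 0.511 and 0.427 in overexpression, against 1.598, 1.12 and 1.24 in control. Every overexpression library was thus below every control library, and the gap between the nearest pair was 0.511 against 1.12 CPM. Exact 95% Poisson intervals, which cover counting error only, reached up to 0.819 CPM in the highest overexpression library and down to 0.821 CPM in the lowest control library, so they came close without overlapping.

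The fitted log2 fold change of Cd36 was −1.61 with a standard error of 0.29, or a fold of 0.327 with a 95% interval of 0.204 to 0.525. Its unadjusted p of 0.000651 in edgeR was the 21st smallest of 19809. Permuting the samples in an exact test of its log2 CPM, two-sided, gave p = 0.1, the smallest that 3 against 3 can give. Cd36 was among the genes set apart in an earlier account of these data, so its place in the ranking is not independent support for a difference. The log2 fold change was −1.62 without overexpression replicates 1 and 2, where choroid plexus markers were high, and between −1.75 and −1.45 without any single library.

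Read against the endothelial genes within each library, Cd36 had 2.38, 3.24 and 2.48 counts per 100 counts of Pecam1 in overexpression, against 11.3, 6.17 and 7.73 in control. Per 100 counts of Cldn5 it had 1.83, 2.55 and 1.85 in overexpression, against 9.53, 3.93 and 5.46 in control. These ratios need no library size, and both separate the groups. The log2 level of Cd36 minus the mean log2 level of the other 9 genes was −5.80, −5.41 and −5.83 in overexpression, against −3.66, −4.60 and −4.32 in control, or −5.68 ± 0.24 and −4.20 ± 0.48 (SD, n = 3 each). The mean log2 level of the 9 genes was 4.62 ± 0.14 in overexpression and 4.64 ± 0.23 log2 CPM in control (SD, n = 3 each). The difference of Cd36 from each single one of the 9 genes was lower in overexpression by 1.33 to 1.67 log2 units on average, values that are given as a description, without a test.

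**Figure D3:**
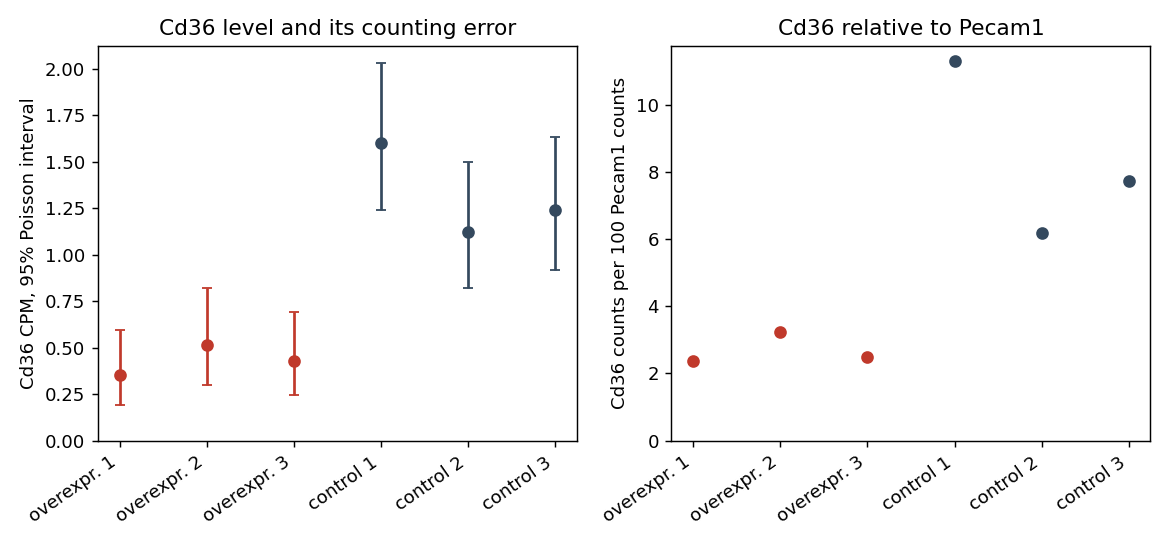
Left, Cd36 level in CPM in each library with its exact 95% Poisson interval, which covers counting error only. Right, Cd36 counts per 100 Pecam1 counts in the same libraries, at 2.38 to 3.24 in overexpression and 6.17 to 11.3 in control.

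Markers of other cells that make Cd36 were read beside it. Of 8 markers of perivascular macrophages 6 were tested, 3 with positive and 3 with negative fold changes, and their summed level was 14.3 to 22.9 CPM in overexpression and 15.8 to 21.6 CPM in control, with no marker at 0 in all libraries. The 8 microglial markers were all tested, 4 with positive fold changes, and summed to 358 to 488 CPM in overexpression and 425 to 445 CPM in control. Of 6 adipocyte markers 1, Retn, was tested, Adipoq, Lep and Cfd were at 0 in all 6 libraries, and the sum was 0.614 to 0.887 CPM in overexpression and 0.668 to 0.841 CPM in control. The 8 blood cell markers, of red cells and platelets, summed to 118 to 210 CPM in overexpression and 149.9 to 188 CPM in control. Of them 6 were tested, 2 with positive fold changes. That sum was mostly globin and hardly reads platelets. Of the platelet markers, Ppbp and Gp9 were too low to test. Itga2b had 1.39 to 2.44 CPM in overexpression and 1.71 to 1.79 CPM in control. The ranges of these 4 sums overlapped between the groups.

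Markers of the cells around the vessels were read in the same way, and 2 of 3 such sums separated the groups. The 8 astrocyte markers were all tested, and all 8 had negative fold changes (median log2 fold change −0.20), where 49.4% of all tested genes had. Their sums of 4407 to 5140 CPM in overexpression lay below those of 5286 to 5643 CPM in control. Slc1a2 was the largest part of these sums, at 2744 to 3201 CPM in overexpression and 3221 to 3515 CPM in control. The mean level of the 8 markers overlapped between the groups, at 7.85 to 8.09 log2 CPM in overexpression and 8.08 to 8.17 log2 CPM in control. In 3 of the 8 the overexpression libraries were all below the control libraries, where 4.11% of all tested genes did so. Those with the smallest p were Aldoc, an aldolase of astrocytes (log2 fold change −0.21, SE 0.07), the glutamate transporter gene Slc1a2 (−0.20, SE 0.09) and the connexin gene Gja1 (−0.22, SE 0.10). The 10 markers of meningeal fibroblasts were all tested, all 10 had positive fold changes (median 0.33), and they summed to 69.5, 174.9 and 56.4 CPM in overexpression replicates 1 to 3, against 42.7 to 51.1 CPM in control. The separation of these sums rested largely on Igf2 and Igfbp2. Igfbp2 had 12.6, 45.7 and 13.2 CPM in overexpression, against 5.11, 5.97 and 10.9 CPM in control. The mean level of all 10 markers was 1.77 to 2.27 log2 CPM in overexpression and 1.40 to 1.67 log2 CPM in control. In 3 of the 10 the overexpression libraries were all above the control libraries, where 4.81% of all tested genes did so.

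The fibroblast markers with the smallest p were Fmod, a matrix proteoglycan (log2 fold change 0.70, SE 0.24), Igfbp2, which binds insulin-like growth factors (1.70, SE 0.65), and the growth factor gene Igf2 (1.43, SE 0.62). Most of the high sum in overexpression replicate 2, the library highest in choroid plexus markers, came from Igf2, at 106 CPM there and 35.8 and 21.99 CPM in overexpression replicates 1 and 3. Without overexpression replicate 2 the log2 fold changes were 0.51 for Igf2 and 0.82 for Igfbp2. Of 14 pericyte and smooth muscle markers 13 were tested, 7 with positive and 6 with negative fold changes (median 0.06), and the sums of 211 to 236 CPM in overexpression and 198 to 244 CPM in control overlapped. The smallest p there was that of Vtn, vitronectin, with 54.4, 51.9 and 54.3 CPM in overexpression, against 41.9, 46.98 and 45.1 CPM in control, a log2 fold change of 0.26 (SE 0.07). Abcc9, a subunit of potassium channels, and Anpep, an aminopeptidase, had log2 fold changes of 0.19 (SE 0.13) and 0.24 (SE 0.18). No marker of these 3 lists passed edgeR's test over all genes or was at 0 in all libraries. Their part in the levels of the 10 genes, among them Slc2a1, which astrocytes also make, was not tested.

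The lists of neighbouring processes were compared by counts and medians, beside a median log2 fold change of 0.0016 over all 19809 genes. None of their genes passed the test over all genes. The list of fatty acid uptake and handling, in which Cd36 belongs by function, had 20 further genes, of which 19 were tested, 10 with positive and 9 with negative fold changes and a median of 0.01. Its member with the smallest p was Thbs1, whose product thrombospondin-1 is a ligand of CD36. Thbs1 had 1.44, 2.59 and 1.04 CPM in overexpression, against 0.811, 0.805 and 0.990 CPM in control, a log2 fold change of 0.95 (SE 0.36, unadjusted p = 0.0301). Its overexpression libraries were all above its control libraries, by little in replicate 3. Acsl3, an acyl-CoA synthetase, and Ppargc1a, a coactivator of mitochondrial genes, had log2 fold changes of −0.18 (SE 0.09) and −0.18 (SE 0.10). Gpihbp1, which anchors lipoprotein lipase to capillaries of other tissues, was at 0 in all 6 libraries.

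The 18 further endothelial identity genes had 10 positive and 8 negative fold changes and a median of 0.07. In 3 of the 18 the groups did not overlap, all on the higher side, where 4.81% of all tested genes did so. They were Esam, Sox17 and Icam2, the last named after its values were seen. Esam is an adhesion molecule of endothelial junctions and had 11.4 ± 0.624 CPM in overexpression and 9.71 ± 0.927 CPM in control (SD, n = 3 each). Sox17, a transcription factor of arterial endothelium, had 5.65, 4.57 and 5.37 CPM in overexpression, against 4.22, 3.73 and 4.55 CPM in control. Clec14a, an endothelial lectin, stood at a log2 fold change of −0.35 (SE 0.25). The list's median was 0.24 without overexpression replicates 1 and 2 and between −0.03 and 0.24 over all settings tried.

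Of 13 further tight junction genes 8 were on the positive side, and the median was 0.02. Jam2, a junctional adhesion molecule, had 41.6, 43.8 and 40.8 CPM in overexpression, against 46.1, 47.0 and 47.1 CPM in control, a log2 fold change of −0.15 (SE 0.06, unadjusted p = 0.0441) in groups that did not overlap. Marveld2, tricellulin, stood below 1 CPM in every library. Of 20 further barrier transporters 11 were on the positive side, and the median was again 0.02. Abcc4, an efflux pump that also carries cyclic nucleotides, had 11.8, 14.1 and 13.2 CPM in overexpression, against 10.1, 9.68 and 11.01 CPM in control. Its log2 fold change was 0.34 (SE 0.11, unadjusted p = 0.0150) and its groups did not overlap. The monocarboxylate carrier Slc16a1 had 44.9 ± 0.146 CPM in overexpression and 49.5 ± 3.28 CPM in control (SD, n = 3 each).

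Among 13 genes of VEGF and angiopoietin signalling, the pathways of Flt1 and Tek, 5 were on the positive side, and the median was −0.03. Vezf1, a zinc finger factor of vascular development, had a log2 fold change of −0.20 with SE 0.09. Angpt1, the ligand that activates TIE2, had 4.97 ± 1.25 CPM in overexpression and 3.80 ± 0.864 CPM in control, and Angpt2, which can oppose it, had 0.730 ± 0.204 CPM in overexpression and 0.503 ± 0.102 CPM in control (SD, n = 3 each). Their unadjusted p values were 0.151 and 0.156 in edgeR. Of 18 genes of the Wnt programme that induces the barrier, 5 were on the positive side, and the median was −0.06. Tcf7, a transcription factor of Wnt signalling that T cells also make, had 5.57, 4.06 and 6.30 CPM in overexpression, against 8.97, 10.5 and 6.41 CPM in control, a log2 fold change of −0.70 (SE 0.23, unadjusted p = 0.0162). Tspan12, a co-receptor of norrin signalling in endothelium, had a log2 fold change of −0.20 (SE 0.08), and Axin2, a common readout of this pathway, one of 0.13 (SE 0.09).

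Genes of endothelial activation and leak had the highest median of the vascular lists, 0.23, with 8 of 13 tested genes positive and 3 of 16, Selp, Sele and Lcn2, too low to test. The median was 0.05 when at least 1 CPM was required in all libraries. Icam1, an adhesion molecule for leukocytes that microglia and astrocytes can also make, had 2.31, 2.35 and 2.62 CPM in overexpression, against 1.48, 1.07 and 1.56 CPM in control. Its groups did not overlap, with a log2 fold change of 0.82 (SE 0.22, unadjusted p = 0.00583, adjusted p = 0.937 in edgeR). Vwf, which endothelial cells store for clotting, had 12.7, 10.5 and 11.7 CPM in overexpression, against 7.73, 9.80 and 9.92 CPM in control, a log2 fold change of 0.35 (SE 0.14, unadjusted p = 0.0362). Of 14 tested arterial and venous genes 9 were on the positive side, and the median was 0.04. Unc5b, a netrin receptor of arterial endothelium, had a log2 fold change of −0.32 (SE 0.15), Ackr1, a chemokine receptor of venules, one of 0.29 (SE 0.15), and Tgm2, a transglutaminase, one of 0.22 (SE 0.12).

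The 9 genes other than Cd36 varied between libraries of the same group. Control replicate 1 was the lowest library for 7 of them and overexpression replicate 1 for Slc2a1 and Tek, while control replicate 2 was the highest for 5 and overexpression replicate 3 for Ly6c1, Slco1a4 and Cdh5. The median deviation of the 9 genes from their control mean was −0.18, −0.11 and 0.10 log2 units in overexpression replicates 1 to 3, against −0.28, 0.21 and 0.05 in control replicates 1 to 3. The control libraries thus spanned a wider range than the overexpression libraries, and held both the lowest and the highest median. Their median log2 fold change of −0.06 turned to 0.08 without control replicate 2 and to 0.09 without overexpression replicates 1 and 2. Of the 9 genes 6 had negative fold changes, where 49.4% of all tested genes had.

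**Figure D4:**
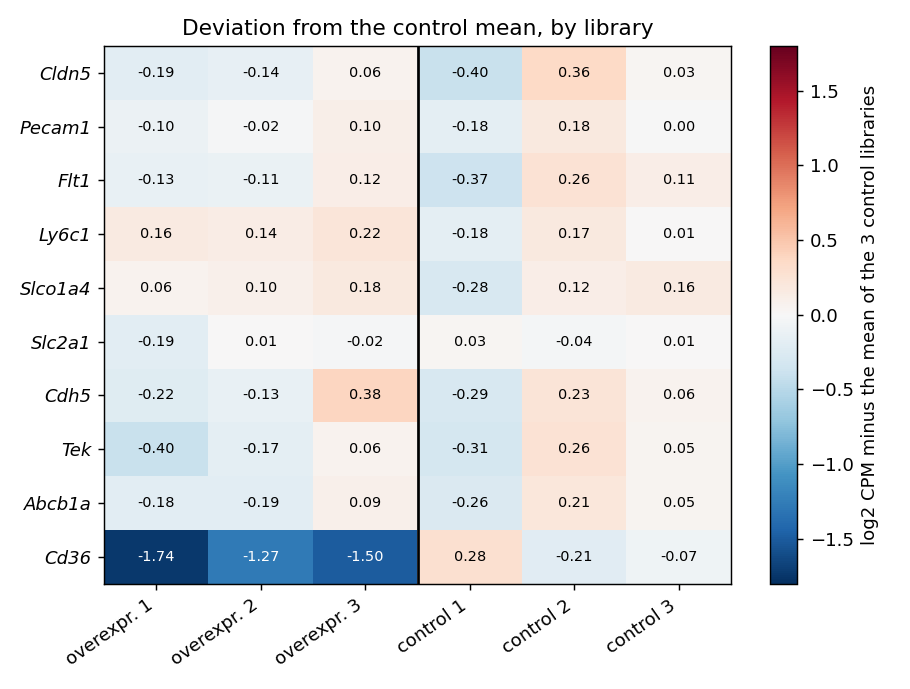
Log2 CPM of each gene in each library minus its mean over the 3 control libraries (colour and printed value). The 9 upper genes stay within −0.40 to 0.38 in both groups, and Cd36 lies at −1.74 to −1.27 in the overexpression libraries and −0.21 to 0.28 in control.

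Compared per length, as CPM per kilobase of exon averaged over the 6 libraries, Slc2a1 was highest at 16.0, followed by Cldn5 at 15.4, Ly6c1 at 12.3 and Slco1a4 at 10.1. Abcb1a stood at 5.17 and Flt1 at 3.57, then Pecam1 at 2.57, Tek at 2.502 and Cdh5 at 2.02. Cd36 was last at 0.244, with 0.120 ± 0.0218 in overexpression and 0.367 ± 0.0693 in control (SD, n = 3 each). The ranges over libraries did not overlap between Slco1a4 and Abcb1a, between Abcb1a and Flt1, and between Cdh5 and Cd36. Every other pair of neighbours in this order overlapped, so their order is not settled by these libraries. Exon length counts every annotated exon of a gene, which lowers the value of genes such as Flt1 with exons that few transcripts use.

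The genes whose log2 CPM followed Cd36 most closely over the 6 libraries, among 16034 genes of at least 1 CPM on average, passing over gene models without a given name, were Gmps (Pearson r = 0.98), Neu3 (0.98), Tunar (0.98), Usp50 (0.98) and Slc25a15 (0.97). For the mean of the 9 other genes they were Carmil3 (0.99), Fbxl19 (0.99), Phf5a (0.99), Pex11a (0.98) and the VEGF receptor gene Kdr (0.98). With 6 libraries and so many genes, coefficients of this size are given as a description only. Of the 18 further endothelial identity genes, 3 (Kdr, Ptprb and Tie1) were among the 100 genes most like the 9-gene mean and 0 were among the 100 most like Cd36.

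The windows of 250 bases before the RefSeq start of Cldn5 and of Cd36 (GRCm38.p6) are shown because they hold the lowest and the highest count, each shared with another gene of the 10, of the ETS core GGAA, read on both strands and set in capitals. The Cd36 start used by RefSeq lies inside the GENCODE gene span. ETS factors such as ERG bind this core in endothelial genes.
Cldn5, chr16:18776597-18776846, plus strand: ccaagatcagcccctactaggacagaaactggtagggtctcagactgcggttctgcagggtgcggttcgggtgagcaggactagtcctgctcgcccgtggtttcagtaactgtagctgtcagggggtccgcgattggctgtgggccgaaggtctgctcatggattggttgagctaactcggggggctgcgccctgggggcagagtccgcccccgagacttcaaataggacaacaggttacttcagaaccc
Cd36, chr5:17835897-17836146, minus strand: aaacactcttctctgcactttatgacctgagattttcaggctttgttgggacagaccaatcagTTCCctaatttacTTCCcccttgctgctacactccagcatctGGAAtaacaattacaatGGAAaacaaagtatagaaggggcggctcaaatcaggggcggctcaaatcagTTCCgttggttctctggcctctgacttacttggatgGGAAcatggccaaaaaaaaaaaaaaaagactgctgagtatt

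The Cd36 window held 6 such cores and the Cldn5 window 0, and 93.4% of 32851 promoter windows of this length held at least 1, with a median of 3. A window was found for 8 of the 10 genes, 9 windows in all since Ly6c1 has 2 starts. The other windows held 0 cores in Slc2a1, 2 in Tek, 4 in Flt1 and Slco1a4, 5 in Abcb1a, whose RefSeq start lies upstream of the GENCODE gene model, and 4 and 6 in Ly6c1. The nuclear receptor half-site AGGTCA occurred once in the Cd36 window and in 14% of all windows, and the SOX core ATTGT occurred 2 times, where 27.7% of all windows held at least 1. These are matches of letters on either strand, not sites, and a window without a match says nothing of a factor.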

How the data were processed

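The deposited files hold raw counts by Ensembl gene, in whole numbers and without normalization, with 1 striatum library in each. Per the labels' protocols, RNA was extracted with Trizol and stranded TruSeq libraries were made. The submitters' processing notes name FastQC 0.11.5, STAR 2.5.3a, Cuffnorm, DESeq 1.16.1 and build mm10, without roles. The counting program and its strand setting are not stated there. Symbols, coordinates and exon lengths came from GENCODE M21, which matched 55154 of 55335 identifiers, and promoter windows from RefSeq (GRCm38.p6).

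Groups were compared with edgeR 4.0.16 in R 4.3.3 (TMM factors, filterByExpr, robust quasi-likelihood test, two-sided, adjusted p threshold 0.05). Standard errors are the absolute log2 fold change over the square root of F, and intervals use the test's degrees of freedom. Log2 CPM had a prior count of 2. The test was tried on simulated counts. Counts of replicates differed by more than sampling noise (chi-square of 21.6 to 56.6 times its degrees of freedom), so none was a second reading of the same library. This does not show whether libraries came from separate animals. Alternatives were DESeq2 1.42.0 factors and Wald test, upper-quartile factors, limma-voom (limma 3.58.1), other filters, a replicate block, and libraries left out.

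The 10 genes and the lists were chosen with earlier results of these data known. From each vascular list, and from those of T cells, astrocytes, meningeal fibroblasts and pericytes, up to 3 genes with the smallest p are named, and the other lists of cells are given by summed level. The likeness ranking passed over gene models with Gm or Rik names. Outside that rule, Icam2, Cd4, Adipoq, Lep, Cfd, Gpihbp1, Selp, Sele, Lcn2, Ptprb and Tie1 were named after their values were seen. The same holds for Cd8a, Ppbp, Gp9, Itga2b, Enpp2 and Ttr.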

Additional observations from a re-analysis of the deposited data

How the results depend on the processing

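Over the 14 other settings of the fit, 0 of the 10 genes passed an adjusted p of 0.05 in 13 of them and 1, Cd36, passed in the DESeq2 Wald test (log2 fold change −1.62, adjusted p = 0.0291). Cd36 could not be fitted where at least 1 CPM was required in every library. Elsewhere its adjusted p ran from 0.423 to 0.999995, and its direction held. The count over all genes was 1 in the fit reported, 83 with the DESeq2 Wald test, 6 with limma-voom, 3 without a filter on low counts, 5 without overexpression replicates 1 and 2, and 1 to 2 when 1 library was left out. Replicate numbers were not taken to pair the samples, since deviations of same-numbered libraries correlated at −0.02, 0.03 and 0.42. Those of differently numbered libraries correlated at −0.50 to 0.51. With a replicate block 3 genes passed, Cd36 had a log2 fold change of −1.61 and 0 of the 10 genes passed. Several endothelial genes, none past the threshold, changed sign when libraries were left out. With 1 library left out, the log2 fold changes ran from −0.22 to 0.0083 for Abcb1a, −0.18 to 0.14 for Abcb1b, −0.19 to 0.14 for Cdh5, −0.29 to 0.081 for Cldn5, −0.22 to 0.072 for Flt1, −0.093 to 0.084 for Pecam1 and −0.023 to 0.18 for Slco1a4. Without overexpression replicates 1 and 2 they were 0.071 for Abcb1a, 0.021 for Abcb1b, 0.029 for Cldn5, 0.089 for Flt1, 0.094 for Pecam1 and 0.037 for Tek, with a lone overexpression library assumed to vary like the others. The cause was not tested. Cd36, at 14 to 17 counts per overexpression library, is the gene of the 10 most limited by depth.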
